A study of Mus musculus with 31 samples.

Results

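Mouse mmu-miR-126b-5p, mmu-miR-122b-3p and mmu-miR-196b-5p are mature microRNAs that were almost uncounted in the hippocampus of mice given water and were counted in every library of treated mice. They were chosen for that difference between water and treated counts, so their treated-to-water values below are a description and carry no test. The fourth, mmu-miR-122-5p, was added because its hairpin overlaps that of miR-122b, not for its counts. These are 4 of the 1966 mature microRNAs in the deposited count tables, and all 4 were counted in at least 1 library. The study sequenced small RNA of the right hippocampus. Its C57Bl/6 J mice were either wild type (WT) or 5-HTT knockouts (KO), which lack the transporter that clears serotonin from the synapse. Each genotype was kept on water under standard housing, given exercise, or treated with corticosterone, a stress hormone of the adrenal gland, with either treatment lasting 4 weeks. The groups held 7 WT-water, 5 WT-exercise, 6 WT-corticosterone, 6 KO-water, 5 KO-exercise and 2 KO-corticosterone libraries, that is 13 water and 18 treated libraries. The labels call them biological replicates and give neither the animals' age nor the dose of corticosterone. In bulk tissue fewer cells of a type and less RNA per cell cannot be told apart.

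A microRNA is cut from a hairpin-shaped precursor as a duplex of a 5p and a 3p arm, and the arm loaded into Argonaute represses mRNAs that pair with its seed, the bases near its 5′ end. MiR-126 is made from a hairpin within Egfl7, a gene of endothelial cells, and is a standard marker of those cells. MiR-122 is the most abundant microRNA of hepatocytes and is known for its part in lipid metabolism, whereas brain holds little of it. The miR-196 family lies in the Hox clusters, which pattern the body axis, and is known for repressing Hox genes.

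In RefSeq (build GRCm38.p6) Mir126b lies on the minus strand opposite Mir126a, at chr2:26591363-26591420. Mir196b lies on the minus strand at chr6:52230081-52230165. In the GENCODE M21 annotation Mir126b falls within an annotated exon of Egfl7, which is read from the plus strand, and Mir196b within an annotated exon of Hoxa9. Of the 4 members 2 have a mature sequence in the RefSeq table used here. They are shown, 5′ to 3′, beside the closest measured relative of each, with the seed (bases 2 to 8) in capitals.
miR-126b-5p: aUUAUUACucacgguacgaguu
miR-126a-3p: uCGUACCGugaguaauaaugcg
miR-196b-5p: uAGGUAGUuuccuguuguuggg
miR-196a-5p: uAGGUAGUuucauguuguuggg
Bases 1 to 19 of miR-126b-5p are the exact reverse complement of miR-126a-3p, and none of the other mature microRNAs with a RefSeq sequence has its seed. MiR-196b-5p and miR-196a-5p share the seed and differ over 22 bases by 1 substitution, C12A, counted from the 5′ end with the base of miR-196b-5p first.

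The hairpins show how close the opposed miR-126 genes are. In the first the capitals mark miR-126a-3p, and in the second they mark miR-126b-5p.
Mir126a hairpin: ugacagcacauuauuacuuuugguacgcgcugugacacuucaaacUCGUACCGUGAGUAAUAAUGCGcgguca
Mir126b hairpin: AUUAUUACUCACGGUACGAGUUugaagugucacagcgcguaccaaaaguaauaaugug
All 58 bases of Mir126b are the reverse complement of a stretch of Mir126a. The longest same-strand match of miR-126b-5p within the Mir126a hairpin is 9 bases long and starts at its base 1. By sequence, miR-126b-5p therefore differs from every stretch of the Mir126a hairpin. If reads were counted without strand, however, reads of both strands would fall on the same coordinates, and no source used here gives the strand setting.

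MiR-126b-5p was counted 3 times in the 13 water libraries together and 2187 times in the 18 treated ones. WT-water had 0 counts in 6 libraries and 2 counts in the other, and KO-water 0 in 5 and 1 in the other. The 5 WT-exercise libraries, in replicate order, had 64, 293, 24, 172 and 115 counts. The 6 WT-corticosterone libraries ran from 25 to 162 with a median of 120.5. The KO-corticosterone pair had 242 and 73 counts, and KO-exercise libraries from 45 to 159 with a median of 125. No treated library came near the water level: the lowest, WT-corticosterone 1, was 27.41 times the highest, KO-water 3, in CPM. CPM, the usual depth-scaled count, relates each count to the library's total and to TMM, a scaling factor from edgeR that lessens the influence of a few abundant microRNAs. On this scale the 5 KO-exercise libraries had 80.38, 45.24, 71.44, 58.94 and 49.88 CPM, the narrowest range of the treated groups of 5 or more. Group means were 69.0 ± 52.21 CPM in WT-exercise (SD, n = 5), 55.67 ± 32.53 in WT-corticosterone (n = 6), 61.18 ± 14.67 in KO-exercise (n = 5) and 71.61 ± 46.08 in KO-corticosterone (n = 2). They were 0.06591 CPM in WT-water and 0.08659 CPM in KO-water.

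MiR-122b-3p was not as close to zero in water. It had 67 counts in 11 of 13 water libraries, from 0 to 13 in WT-water (median 4) and from 0 to 11 in KO-water (median 3). WT-exercise libraries had 139, 444, 23, 300 and 208 counts, and WT-corticosterone libraries from 35 to 347 with a median of 228. KO-exercise libraries had 300, 105, 249, 195 and 229 counts, and the KO-corticosterone pair had 441 and 128. Here too every treated library was above every water library, with 18.28 CPM in the lowest treated library and 5.092 CPM in the highest water library. Group means were 114.4 ± 78.81 CPM in WT-exercise, 101.2 ± 61.35 in WT-corticosterone, 120.1 ± 33.92 in KO-exercise and 129.2 ± 85.87 in KO-corticosterone (SD, n as above). WT-water stood at 1.822 ± 1.293 CPM (n = 7) and KO-water at 2.179 ± 1.957 CPM (n = 6).

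MiR-196b-5p was the rarest of the 3 in treated tissue. All 7 WT-water libraries had 0 counts, which over their summed totals allows up to 0.145 CPM, and 1 count fell in 1 of 6 KO-water libraries. WT-exercise libraries had 6, 20, 10, 35 and 29 counts, and WT-corticosterone libraries from 4 to 30 with a median of 11. KO-exercise libraries had 10, 11, 26, 34 and 30 counts, and the KO-corticosterone pair had 31 and 28. The treated means were 10.36 ± 4.707 CPM in WT-exercise, 6.736 ± 3.764 in WT-corticosterone, 12.35 ± 5.967 in KO-exercise and 14.16 ± 1.147 in KO-corticosterone (SD, n as above). The treated and water ranges did not overlap, with 2.278 CPM in the lowest treated library and 0.4131 CPM in the highest water library.

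MiR-122-5p did not share this pattern, although its gene and that of miR-122b-3p overlap. Mir122 is on chromosome 18 at 65248861 to 65248926 and Mir122b at 65248863 to 65248921, so all 59 bases of Mir122b fall within Mir122. Both fall within an exon of a long noncoding RNA (AC157910.3), which lies on the plus strand, as Mir122 does. The sources used here do not give the strand of Mir122b. MiR-122-5p was counted in all 31 libraries. WT-water libraries had from 7 to 30 counts with a median of 14, and KO-water libraries from 2 to 16 with a median of 7.5. WT-exercise libraries had 13, 12, 4, 22 and 14 counts, and WT-corticosterone libraries from 11 to 29 with a median of 15. KO-exercise libraries had 12, 14, 21, 25 and 16 counts, and the KO-corticosterone pair had 16 and 9. Its treated and water ranges overlapped, and 7 of 18 treated libraries were above all 13 water libraries in CPM.

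**Figure D1:**
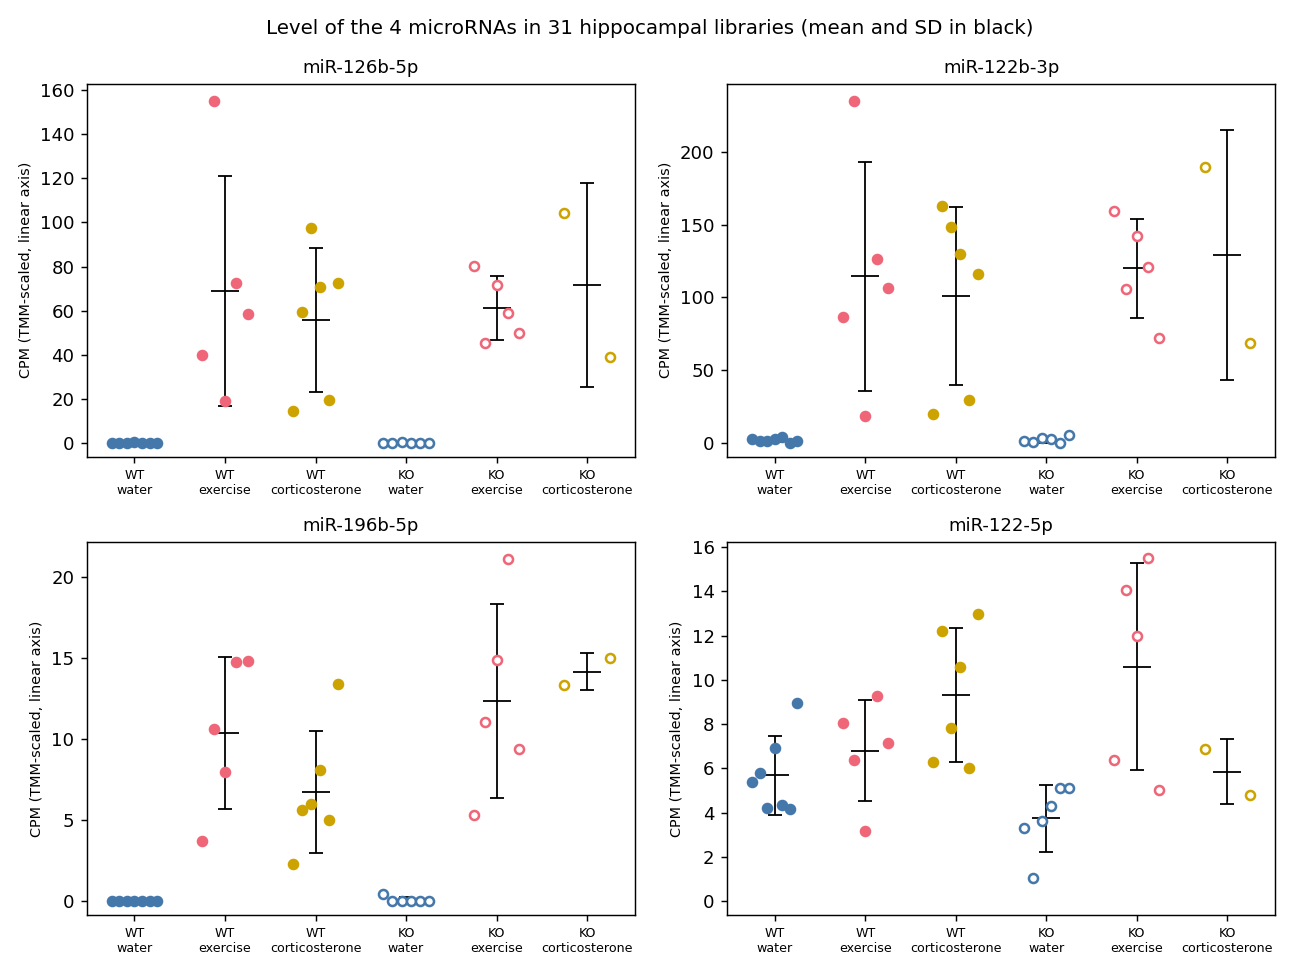
Level of each of the 4 microRNAs by group, in TMM-scaled CPM on linear axes that differ between panels; each point is 1 library (filled, WT; open, KO), and black bars give the mean and SD. For miR-126b-5p, miR-122b-3p and miR-196b-5p all 18 treated libraries lie above all 13 water libraries, whereas for miR-122-5p the ranges overlap.

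The order of the group means was read against the ranges of neighbouring groups. For miR-126b-5p the order was KO-corticosterone, WT-exercise, KO-exercise, WT-corticosterone, KO-water and WT-water. For miR-122b-3p and miR-196b-5p it was the same except that KO-exercise came before WT-exercise. In each of these 3 orders the only neighbours without overlap were WT-corticosterone and KO-water. For miR-122-5p KO-exercise was highest, at 10.6 ± 4.664 CPM (n = 5). WT-corticosterone (9.303 ± 3.019), WT-exercise (6.799 ± 2.292), KO-corticosterone (5.85 ± 1.469), WT-water (5.676 ± 1.764) and KO-water (3.748 ± 1.513) followed, and every neighbouring pair overlapped.

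Pooled over genotype and treatment, the ratio of count rates between treated and water libraries was 706.3 for miR-126b-5p (exact 95% counting interval 241.4 to 3427, from 2187 against 3 counts). It was 56.66 for miR-122b-3p (44.51 to 73.25, from 3918 against 67) and 338.1 for miR-196b-5p (60.29 to 13390, from 349 against 1). MiR-122-5p, which shares a locus with miR-122b-3p, stood at 1.649 (1.358 to 2.008, from 286 against 168). These intervals cover counting error only and not the spread between animals.

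Ratios within the knockout are given for the same 3 microRNAs. Their choice used the knockout libraries too, so high ratios there were fixed by it. Intervals were wide where water held 1 count. Between KO-exercise and KO-water the ratio was 809.4 for miR-126b-5p (144.7 to 32030), 60.7 for miR-122b-3p (40.89 to 94.22) and 156.3 for miR-196b-5p (27.47 to 6227). Between KO-corticosterone and KO-water it was 1037 (184.8 to 41090), 74.92 (50.23 to 116.8) and 194.2 (33.53 to 7800) for the same 3. Without KO-corticosterone 1, the library with the higher counts of miR-126b-5p and miR-122b-3p, the last comparison gave 579.2 for miR-126b-5p and 40.62 for miR-122b-3p. With edgeR's quasi-likelihood test, 21 of 523 microRNAs (4.02%) were called in KO-exercise against KO-water at a Benjamini-Hochberg adjusted p below 0.05, 16 of them higher (3.06%), among them these 3. In KO-corticosterone against KO-water 3 of 576 (0.521%) were called, and they were the 3 chosen members. The corresponding share was 32.5% in WT-exercise and 41.9% in WT-corticosterone, where both miR-126b-5p and also miR-122b-3p passed and miR-196b-5p, at 0 in all WT-water libraries, did not pass the count filter. Because the members were chosen on these contrasts, nothing is read from their calls.

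Complete separation of treated from water libraries was rare. Of 1575 microRNAs counted anywhere, 5 (0.317%) had all 18 treated libraries above all 13 water libraries, and 1 (0.0635%), miR-150-3p, had them all below. Within single comparisons the share above was 2.35% for WT-exercise, 3.16% for WT-corticosterone, 1.28% for KO-exercise and 5.36% for KO-corticosterone. Besides the 3 members the 5 held let-7b-3p and miR-30c-5p, named here after their values were seen. For these the lowest treated library was 1.047 and 1.0 times the highest water library, against 3.59 for miR-122b-3p, 5.515 for miR-196b-5p and 27.41 for miR-126b-5p. The choice of the members fixes their own place in this count.

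Not chosen were miR-1b-5p and miR-490-5p, which also had a mean under 1 CPM in water and a count in all 18 treated libraries. Each was counted in 10 of 13 water libraries. MiR-1b-5p had 33 counts in water and 56 in treated libraries, a ratio of mean CPM of 1.957, and miR-490-5p had 37 and 66, a ratio of 2.077. Their means in water, 0.8762 and 0.9722 CPM, were just under the limit of 1 CPM. MiR-126b-5p at 0.07545 CPM and miR-196b-5p at 0.03178 CPM were far under it, with ratios of 830.6 and 318.6, and the chosen miR-122b-3p at 1.987 CPM was above it. In the reverse direction, with a mean under 1 CPM in treated tissue and a count in all water libraries, stood miR-341-5p, miR-7065-3p and miR-5132-3p, with ratios of 0.8039, 0.874 and 0.3954.

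The partner arms of the same hairpins stayed near zero in treated tissue. MiR-126b-3p, the other arm of Mir126b, had 2 counts in 1 water library and 0 in 18 treated libraries. MiR-122b-5p and miR-196b-3p had 0 counts in all 31 libraries, and miR-122-3p had 1. A count of 0 over the 18 treated libraries allows up to 0.08796 CPM. MiR-196a-5p, which differs from miR-196b-5p at 1 base, had 1 count in water and 2 in treated libraries. MiR-196a-2-3p had 5 and 6 counts and miR-196a-1-3p had 0, so of the miR-196 family only miR-196b-5p reached a count in every treated library.

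The arms of Mir126a, on the strand opposite Mir126b, were abundant in all groups. MiR-126a-3p had a mean of 5485 ± 465.6 CPM in WT-water (SD, n = 7), 7786 ± 2920 in WT-exercise (n = 5) and 7695 ± 1880 in WT-corticosterone (n = 6). In the knockout it had 8957 ± 4298 CPM in water (n = 6), 7213 ± 903.5 with exercise (n = 5) and 7330 ± 327.9 with corticosterone (n = 2). It was higher in WT-exercise than in WT-water by 0.53 ± 0.19 on the log2 scale (edgeR, adjusted p = 0.0422) and in WT-corticosterone by 0.56 ± 0.16 (adjusted p = 0.0115). In the knockout the log2 differences were -0.28 ± 0.31 for exercise (adjusted p = 0.707) and -0.32 ± 0.50 for corticosterone (adjusted p = 0.879). MiR-126a-5p was higher in WT-exercise by 0.54 ± 0.16 (adjusted p = 0.0205) and in WT-corticosterone by 0.65 ± 0.15 (adjusted p = 0.00333), and differed by 0.14 ± 0.29 (adjusted p = 0.861) and 0.13 ± 0.47 (adjusted p = 0.927) in the knockout.

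MiR-126b-5p did not keep a fixed proportion to miR-126a-3p. In treated libraries it was 0.1489% to 2.536% of the miR-126a-3p count, with a median of 0.8156%, and in water libraries 0% to 0.008%. The treated libraries lowest in miR-126b-5p were WT-corticosterone 1, WT-exercise 3 and WT-corticosterone 5, at 14.24, 19.08 and 19.53 CPM. Those libraries had 9520, 12813 and 8997 CPM of miR-126a-3p, all above the treated median of 7212. Among KO-water libraries miR-126a-3p was 10490, 13384 and 14204 CPM in replicates 3, 4 and 6, which are also in the deposited table of the genotypes, and between 4661 and 6024 CPM in the other 3. MiR-126b-5p was at 1 count or none in both sets.

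**Figure D2:**
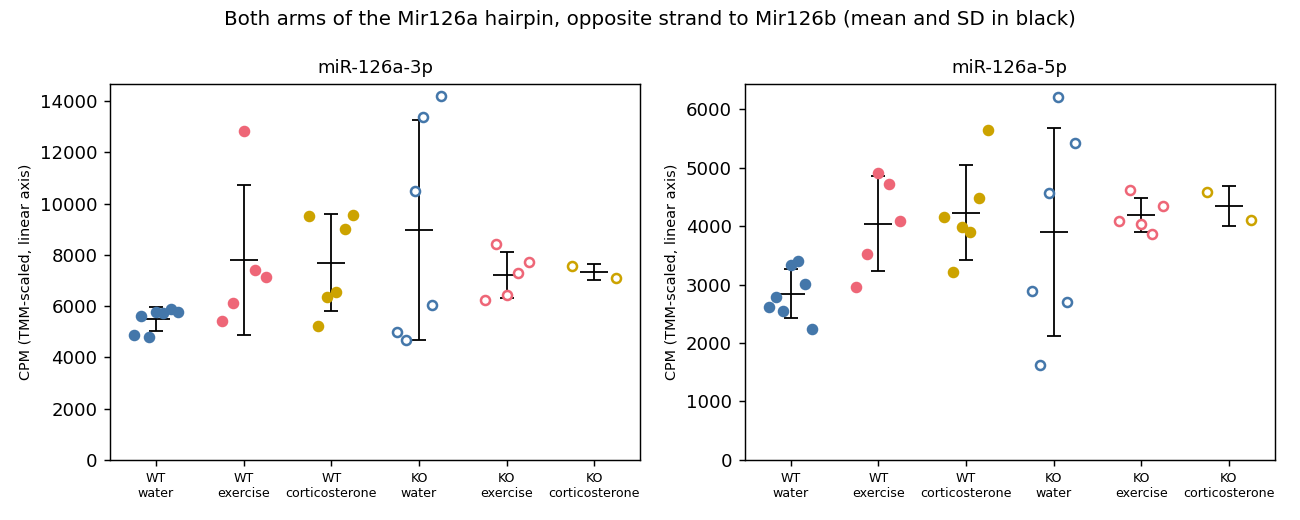
Level of the 2 arms of Mir126a by group, in TMM-scaled CPM on linear axes from 0; each point is 1 library (filled, WT; open, KO), with the mean and SD in black. The water and treated ranges of both arms overlap in the wild type and in the knockout, and 3 KO-water libraries of miR-126a-3p stand between 10490 and 14204 CPM.

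Since miR-126b-5p is antisense to an abundant microRNA, other measured microRNAs in that position were examined. A RefSeq sequence was found for 1675 of the mature microRNAs, and 36 pairs among them had an exact reverse-complement overlap of at least 18 bases. In 15 of these pairs the more counted partner had at least 10000 counts over 31 libraries. MiR-9b-3p, opposite miR-9-5p, had 36 counts in water and 38 in treated libraries, and their rates stood in a ratio of 1.023 (95% interval of counting error 0.631 to 1.66). MiR-9b-5p, opposite miR-9-3p, had 97 and 106 counts, a ratio of 1.059 (0.7962 to 1.409), and miR-3074-5p, opposite miR-24-3p, had 19 and 18, a ratio of 0.9178 (0.4543 to 1.848). MiR-3071-3p, opposite miR-136-5p, had 0 and 1 counts. Over all libraries miR-9-5p, miR-9-3p and miR-24-3p were each more counted than miR-126a-3p. Over all 36 pairs, whatever the count of the other partner, 10 other less counted partners had at least 20 counts. Their ratios lay between 0.5167 and 1.292, against 706.3 for miR-126b-5p. Both ends came from pairs whose more counted partner had under 10000 counts. Those of the 10 opposite a partner with at least 10000 counts had ratios between 0.9178 and 1.082. MiR-126b-5p was chosen for its treated excess, so its place outside these ranges was fixed by the choice. The origin of its reads was not tested. MiR-122-5p and miR-122b-3p had no mature sequence in the RefSeq source used here, so they could not enter this search. Whether they form such a pair was not tested.

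**Figure D3:**
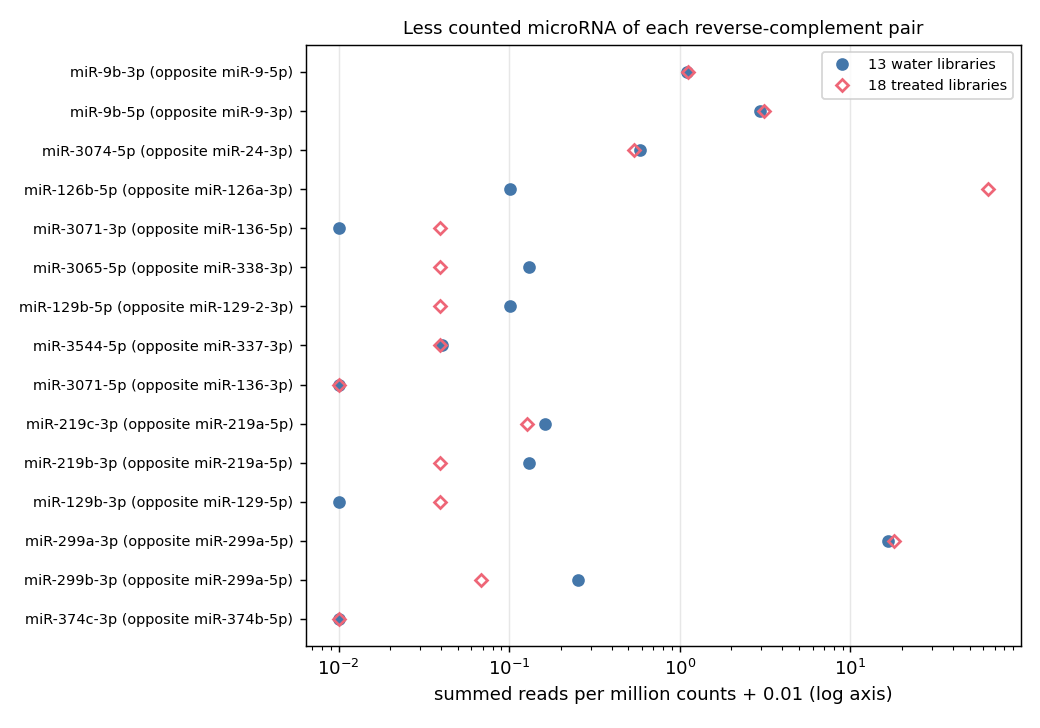
Less counted microRNA of each of the 15 reverse-complement pairs whose other partner had at least 10000 counts, as summed CPM without TMM, plus a small constant, on a log axis (circles, 13 water libraries; diamonds, 18 treated libraries). The symbols lie far apart for miR-126b-5p, whose rates differ 706.3-fold, and nearly coincide for miR-9b-3p, miR-9b-5p and miR-3074-5p. Symbols of several others, with at most 8 counts in either set of libraries, also stand apart, in both directions.

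Across treated libraries the level of miR-126b-5p followed that of miR-122b-3p, although their hairpins lie on different chromosomes. Over 18 treated libraries, with each group centred on its mean of log2(CPM + 1), Pearson's r was 0.959 (permutation p = 1e-05, the smallest that 100000 resamples can give; adjusted p = 6e-05 over 6 pairs of members). Spearman's rho was 0.948 (permutation p = 1e-05, adjusted p = 6e-05). Without WT-exercise 3 and WT-corticosterone 1, the libraries farthest from the median of miR-126b-5p, r was 0.936. The sample codes begin with G or H, a letter of unstated meaning, and r was 0.961 within letter G (n = 11) and 0.944 within letter H (n = 7). Without centring r was 0.956. The values share a library and its scaling to CPM. Centred values were permuted freely over all 18 libraries, so the permutation p-values of these correlations, here and below, can be too small.

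Their shares of the summed counts were compared too. MiR-126b-5p made up 35.82% of the summed counts of both in the treated libraries pooled, with a range over libraries of 26.79% to 51.06% and a median of 35.96%. The exact binomial 95% interval of 14 of 18 treated libraries held the pooled share, and sums per library ran from 47 to 737 counts. Outside it were WT-exercise 2, WT-exercise 3 and KO-exercise 5 on the high side and WT-corticosterone 2 on the low side. In water the share was 3 of 70 counts, or 4.286% (exact binomial 95% interval 0.8927% to 12.02%). The share of miR-196b-5p in its sum with miR-122b-3p ran from 3.226% to 30.3%, and 10 of 18 intervals held the pooled 8.179%.

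**Figure D4:**
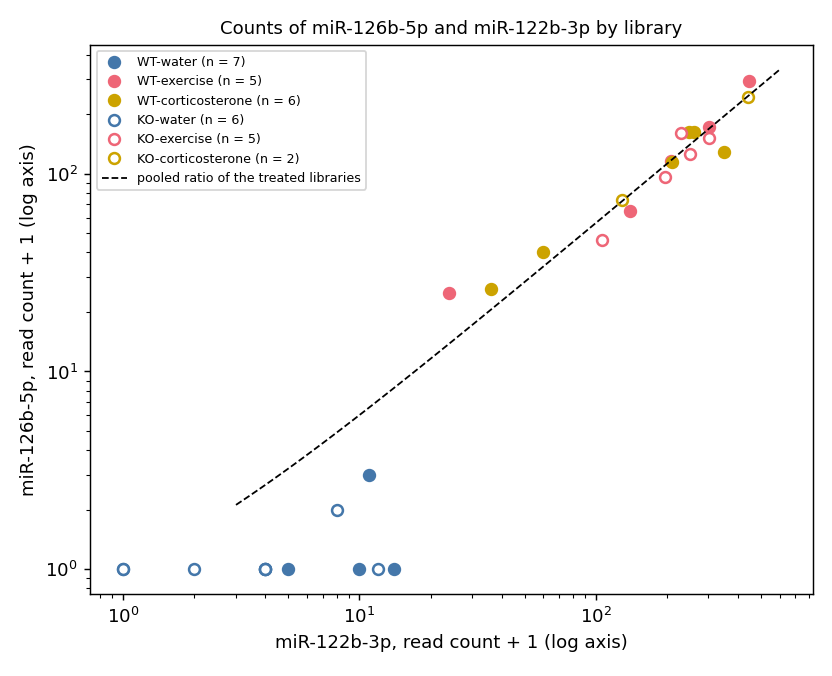
Read count plus 1 of miR-126b-5p against that of miR-122b-3p in each of 31 libraries, on log axes (filled, WT; open, KO; colour, treatment); the dashed line is the pooled ratio of the treated libraries, at which miR-126b-5p is 35.82% of the sum. The 18 treated libraries follow the line over a wide range of counts, and the 13 water libraries lie at its lower end or below it.

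The other 5 pairs of members followed each other less closely. MiR-196b-5p and miR-126b-5p had r = 0.441 and rho = 0.441 (permutation p = 0.066 and 0.0693, adjusted p = 0.0792 and 0.114), and r = 0.267 without the same 2 libraries. MiR-196b-5p and miR-122b-3p had r = 0.394 and rho = 0.412 (permutation p = 0.107 and 0.0896, adjusted p = 0.107 and 0.114), and r = 0.198 without them. MiR-122-5p and miR-126b-5p had r = 0.469 and rho = 0.294 (permutation p = 0.0498 and 0.237, adjusted p = 0.0747 and 0.237), and r = 0.222 without them.

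MiR-122b-3p and miR-122-5p, which share a locus, had r = 0.626 (permutation p = 0.00522, adjusted p = 0.0157). Their rho was 0.408 (permutation p = 0.0946, adjusted p = 0.114), and r was 0.434 without the same 2 libraries, so the relation leans on them. MiR-196b-5p and miR-122-5p had r = 0.546 (permutation p = 0.0198, adjusted p = 0.0396) and rho = 0.591 (p = 0.0112, adjusted p = 0.0337), with r = 0.701 without WT-exercise 1 and WT-corticosterone 1. Within letter G their r was 0.362 (n = 11) and within letter H 0.809 (n = 7), and without centring it was 0.307 over all 18. The ratio of miR-122b-3p to miR-122-5p counts ran from 3.182 to 37.0 in treated libraries, with a median of 12.82, and from 0 to 1.0 in water libraries, with a median of 0.375. Thus miR-122-5p was the more counted of the pair, or equal to it, in all 13 water libraries and the less counted in all 18 treated ones.

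The spread between treated libraries is given as a ratio. The highest treated library had 10.9 times the CPM of the lowest for miR-126b-5p, 12.87 times for miR-122b-3p, 9.258 times for miR-196b-5p and 4.879 times for miR-122-5p. For comparison, this ratio was 2.455 for miR-126a-3p and 1.536 for miR-124-3p, a microRNA of neurons, both of which are far more abundant. For miR-196b-5p and miR-122-5p, with 35 and 29 counts at most in a treated library, counting error is part of this spread.

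The contrasts that the choice of members did not use compare treated groups with each other. Between WT-exercise and WT-corticosterone the log2 difference was 0.33 ± 0.55 for miR-126b-5p (SE; 95% interval -0.85 to 1.51) and 0.19 ± 0.60 for miR-122b-3p (-1.10 to 1.48). It was 0.62 ± 0.42 for miR-196b-5p (-0.28 to 1.53) and -0.43 ± 0.31 for miR-122-5p (-1.09 to 0.23). None of the 4 passed (edgeR, adjusted p = 0.999 each), and their exact permutation p ranged from 0.19 to 0.922. The groups overlapped for every member. With the code letter as a covariate miR-196b-5p differed by 0.36 ± 0.33 (edgeR, adjusted p = 0.994). Without WT-exercise 2, the library with the highest miR-126b-5p and miR-122b-3p, the differences of these 2 turned to -0.22 and -0.26.

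Genotype was compared within each treatment. In KO-exercise against WT-exercise the log2 difference was -0.18 ± 0.45 for miR-126b-5p (95% interval -1.16 to 0.80) and 0.06 ± 0.48 for miR-122b-3p (-0.98 to 1.11). It was 0.23 ± 0.42 for miR-196b-5p (-0.69 to 1.14) and 0.57 ± 0.37 for miR-122-5p (-0.24 to 1.38), with edgeR adjusted p = 0.999 for each. All 4 pairs of ranges overlapped, and the exact permutation p ranged from 0.183 to 0.817. The signs of the first 3 turned with single libraries: miR-126b-5p was 0.35 without WT-exercise 2, miR-122b-3p was -0.21 without WT-exercise 3 and below 0 in 3 further cases, and miR-196b-5p was -0.07 without KO-exercise 4. For miR-126b-5p the difference of mean log2(CPM + 1), 0.115, already had the opposite sign.

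In KO-corticosterone against WT-corticosterone, with 2 knockout libraries, the difference was 0.38 ± 0.66 for miR-126b-5p (-1.09 to 1.84) and 0.36 ± 0.72 for miR-122b-3p (-1.25 to 1.98). Without KO-corticosterone 1 they were -0.49 and -0.54. MiR-196b-5p differed by 1.06 ± 0.49 (-0.02 to 2.14) and miR-122-5p by -0.65 ± 0.43 (-1.60 to 0.30), and edgeR's adjusted p was 1.0 for all 4. Both KO-corticosterone libraries carry the code letter H, as does 1 of 6 WT-corticosterone libraries, so letter and genotype nearly coincide here. With the letter as a covariate the difference was 0.11 ± 0.59 for miR-196b-5p, 0.02 ± 1.05 for miR-126b-5p, 0.19 ± 1.18 for miR-122b-3p and -1.09 ± 0.56 for miR-122-5p (edgeR, adjusted p = 0.997 each). An exact permutation test of 2 against 6 libraries cannot go below 0.0714, and its p for miR-196b-5p was 0.143. None of these 3 comparisons called any microRNA (0% each, of 521, 517 and 552 tested), with 20, 5 and 9 at an unadjusted p below 0.05 and 1, 0 and 0 called by DESeq2. The intervals for the members leave room for differences of more than 2-fold in either direction for miR-122b-3p in WT-exercise against WT-corticosterone, and for it and miR-126b-5p in the knockout against the wild type under corticosterone.

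MiR-122-5p was not chosen for its counts, so its treated-to-water values can be tested. In WT-corticosterone it was higher than in WT-water by 0.77 ± 0.26 on the log2 scale (95% interval 0.22 to 1.32; edgeR, adjusted p = 0.0268), with 3 of 6 libraries above all 7 water libraries. The call was lost without scaling factors (0.62, adjusted p = 0.0577), without the count filter (0.71, adjusted p = 0.117) and without any 1 of 7 libraries, namely WT-water 2, 3, 5 and 6 and WT-corticosterone 2, 4 and 6 (0.59 to 0.74). The exact permutation test of log2(CPM + 1) gave a difference of 0.61 (two-sided p = 0.0233, adjusted p = 0.198 over the 17 member tests of this kind). In WT-exercise the difference from water was 0.32 ± 0.29 (-0.31 to 0.94; edgeR, adjusted p = 0.398).

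In the knockout miR-122-5p did not pass the count filter for exercise. There 4 of 5 exercise libraries were above all 6 water libraries, and the difference of mean log2(CPM + 1) was 1.26 (exact permutation p = 0.013, adjusted p = 0.198). With no filter edgeR gave 1.36 ± 0.42 (adjusted p = 0.131). Against subsets of KO-water it passed the filter: with the 3 libraries outside the genotype table the difference was 1.59 ± 0.52 (edgeR, adjusted p = 0.0477), and with the 3 inside it 1.15 ± 0.46 (adjusted p = 0.078). KO-corticosterone differed from KO-water by 0.61 ± 0.53 (edgeR, adjusted p = 0.852), with 1 of 2 libraries above all water libraries, and by 0.14 ± 0.62 with the code letter as a covariate. KO-water against WT-water gave -0.57 ± 0.33 (edgeR, adjusted p = 0.238; exact permutation p = 0.0501, adjusted p = 0.284). In that comparison edgeR called 0 of 545 microRNAs (0%), with 179 at an unadjusted p below 0.05 and 115 called by DESeq2, and the other 3 members did not pass the filter.

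Markers of cell types in which these microRNAs are known were read from the same fits, with the members left out. Of 9 vessel and endothelial microRNAs 3 rose and none fell in WT-exercise, and 3 rose and none fell in WT-corticosterone (19.9% and 24.9% of all tested rose). In both they were miR-126a-3p, miR-126a-5p and miR-145b. MiR-145b rose by 1.20 ± 0.34 (edgeR, adjusted p = 0.0173) and 1.13 ± 0.32 (adjusted p = 0.0118) on the log2 scale. The list's median log2 difference was -0.105 in WT-exercise and 0.0222 in WT-corticosterone, beside 0.0394 and 0.0587 over all tested. In the knockout it was -0.0716 with exercise and -0.097 with corticosterone, beside -0.0137 and -0.117 over all tested. Between KO-water and WT-water it was -0.056, beside -0.0843. Summed levels were 16310 to 33020 CPM in water and 18950 to 28290 CPM in treated libraries.

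Of 9 liver microRNAs other than miR-122-5p, 4 were tested, 2 rose in WT-exercise and 3 in WT-corticosterone, beside 19.9% and 24.9% of all tested. MiR-194-5p rose by 1.71 ± 0.22 (edgeR, adjusted p = 0.000194) and 1.51 ± 0.24 (adjusted p = 0.000219), and miR-192-5p by 0.86 ± 0.26 (adjusted p = 0.0232) and 0.73 ± 0.22 (adjusted p = 0.0146). In the knockout, where miR-122b-3p was at 120.1 CPM with exercise and 129.2 CPM with corticosterone, miR-194-5p differed from water by 0.51 ± 0.41 (edgeR, adjusted p = 0.594) and -0.02 ± 0.64 (adjusted p = 0.989). MiR-192-5p differed there by -0.78 ± 0.45 (adjusted p = 0.43) and -0.80 ± 0.71 (adjusted p = 0.852). The list's median was 0.623 and 0.641 in the 2 wild-type comparisons, beside 0.0394 and 0.0587 over all tested, and 0.124 and -0.227 in the knockout, beside -0.0137 and -0.117. The water groups themselves differed: in KO-water against WT-water the list's median was 0.69, beside -0.0843 over all tested, with none of the 4 called. The knockout and wild-type values are thus set against unlike water levels. Its summed level was 2052 to 4244 CPM in water and 2008 to 3802 CPM in treated libraries. The hepatocyte markers miR-122-5p and miR-122-3p had at most 30 and 1 counts in a library, and miR-194-1-3p had none.

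Of 7 red blood cell microRNAs 5 were tested. On the log2 scale miR-451a, the defining one, fell by 1.03 ± 0.34 in WT-exercise (edgeR, adjusted p = 0.0341) and by 1.24 ± 0.22 in WT-corticosterone (adjusted p = 0.000548). MiR-486b-5p rose by 0.98 ± 0.29 in WT-exercise, and miR-144-5p by 0.89 ± 0.22 and miR-486a-5p by 0.59 ± 0.22 in WT-corticosterone (edgeR, adjusted p = 0.0217, 0.0053 and 0.0358). In the knockout miR-451a differed from water by -0.78 ± 0.36 with exercise (adjusted p = 0.308) and by -0.76 ± 0.50 with corticosterone (adjusted p = 0.792). The list's median was 0.564 and 0.591 in the wild-type comparisons and -0.311 and -0.448 in the knockout, to be read beside the same medians over all tested. In KO-water against WT-water the list's median was 0.821, beside -0.0843 over all tested, with none of the 5 called, so here too the water levels were unlike. In WT-exercise 1 of the 5 rose and 1 fell, beside 19.9% and 12.7% of all tested, and in WT-corticosterone 2 rose and 1 fell, beside 24.9% and 17%. Its summed level was 569.9 to 2450 CPM in water and 437.4 to 1894 CPM in treated libraries.

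MiR-196b-5p was set beside 10 other microRNAs of the miR-196 family and the Hox clusters. Of these 1, miR-10a-5p, was tested against water in each treated group, and it was not called in any (log2 differences of -1.01 ± 0.44, 0.13 ± 0.35, 0.28 ± 0.43 and -1.02 ± 0.67; edgeR, adjusted p = 0.0914, 0.786, 0.797 and 0.776). MiR-196a-1-3p, miR-196b-3p and miR-10a-3p had no count. The summed level of the 10 was 2.315 to 23.01 CPM in water and 4.342 to 20.45 CPM in treated libraries. The neuronal list, which stands for the labelled tissue, summed to 313100 to 440600 CPM over all libraries. The part of these other cell types in the members' values was not tested.

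For each member the 3 microRNAs most like it over the 18 treated libraries were found by Pearson's r of group-centred log2(CPM + 1), among microRNAs with a mean of at least 10 CPM. For miR-126b-5p they were miR-122b-3p (0.9586), miR-98-3p (0.8774) and let-7c-2-3p (0.8509), from 463 candidates. For miR-122b-3p they were miR-126b-5p (0.9586), miR-190a-5p (0.8931) and let-7c-2-3p (0.8846). Unlike the members, miR-98-3p (41.66 CPM in water and 65.83 in treated libraries), let-7c-2-3p (160.3 and 177.7) and miR-190a-5p (197.7 and 217.5) were well counted in water. For miR-196b-5p the nearest were let-7b-5p (0.8164), miR-132-3p (0.7967), a microRNA induced by neuronal activity, and let-7e-5p (0.7246), from 464 candidates. For miR-122-5p they were miR-150-3p (0.7527), let-7b-5p (0.6513) and miR-122b-3p (0.6256). Libraries share their scaling, and a likeness over 18 libraries is given as a description.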

How the data were processed

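Small RNA libraries of 31 right hippocampi were sequenced on an Ion Torrent S5, per the labels' protocols. The authors deposited whole-number read counts per mature microRNA in 5 tables, each named for a pair of groups. The table of the genotypes on water also held KO-exercise 4, which was kept in the exercise group by its label. The tools named in the submitters' processing notes are limma 3.54.1, featureCounts of Subread, BWA and cutadapt 2.3, with GRCm38; their order, and whether reads were counted by strand, are not given in the sources used here. Libraries in several tables held identical counts. Total counts were 1011285 to 4052174 per library, and no pair within a group agreed within sampling noise. The labels call the replicates biological but name no animals, so p-values measure the spread between these samples.

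Counts were fitted per comparison with edgeR 4.0.16 in R 4.3.3 (filterByExpr, TMM, glmQLFit with robust estimation, glmQLFTest, Benjamini-Hochberg over all microRNAs tested; called at adjusted p below 0.05), after tests on simulated data. Errors of log2 differences are SE. Ratios of rates used raw totals. Exact two-sided permutation tests used mean log2(CPM + 1), and correlations 100000 permutations. Alternatives were DESeq2 1.42.0, its size factors, no scaling, no filter, the code letter, a replicate block, subsets of KO-water and leaving out each library. Sequences came from RefSeq and annotation from GENCODE M21. Named are the members, other arms of their hairpins, called or abundant list members, the 5 most counted antisense pairs, the 3 nearest patterns per member and microRNAs passing the same low-in-water rule. Members and lists were chosen with earlier results of these data known.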

Additional observations from a re-analysis of the deposited data

Results flagged for a closer look

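Of 19 member-by-group sets of 4 to 10 libraries, 3 held 1 library that a gap test set apart from the rest of its group. All 3 were water libraries with 1 or 2 counts where the rest of the group had 0. With every other library at 0 any single count is set apart, so the flags carry no information beyond those counts, and the usual chance rate of 1 in 20 groups cannot be applied to them. MiR-126b-5p was at 0.461 CPM in WT-water 4 and at 0.52 CPM in KO-water 3. MiR-196b-5p was at 0.413 CPM in KO-water 1. Each is below the lowest treated library of the same microRNA.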

How the results depend on the processing

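Of 16 member log2 differences refitted under other settings, only miR-122-5p in WT-corticosterone against WT-water was called. For the rest, keeping the side of the threshold meant staying uncalled. Of the 112 refitted values, leave-one-out fits not included, 109 kept their direction and side of the threshold. The exceptions were miR-122-5p in WT-corticosterone against WT-water (0.62 without scaling factors and 0.71 without the filter, both no longer called) and miR-126b-5p in KO-exercise against WT-exercise, which was 0.12 with the replicate block. With the code letter as a covariate miR-196b-5p in KO-corticosterone against WT-corticosterone was 0.11 beside 1.06, neither of them called. Same-numbered libraries correlated with mixed signs, from -0.506 to 0.61, which gave no sign that the numbers pair the samples. The share of tested microRNAs called moved more. WT-exercise against WT-water (180, 32.5%) gave 37 (6.85%) with the replicate block and 107 (19.8%) on the same libraries without it. KO-exercise against KO-water (21, 4.02%) gave 38 (7.27%) with DESeq2, 11 (0.783%) without the filter, 7 (1.35%) with the replicate block, 177 (32.8%) with the KO-water libraries of the genotype table and 118 (21.7%) with the others. KO-corticosterone against KO-water (3, 0.521%) gave 7 (1.22%) with DESeq2, 22 (4.0%) with the replicate block, 26 (4.73%) on those libraries without it, 19.2% with the KO-water libraries of the genotype table and 40 (7.08%) with the others. KO-water against WT-water (0) gave 26 (4.77%) with DESeq2 size factors, 115 (21.1%) with DESeq2, 23 (1.58%) without the filter and 354 (60.9%) with the genotype-table libraries. WT-exercise against WT-corticosterone (0) gave 1 (0.192%) with DESeq2. Without scaling factors 47.9% of the calls in WT-exercise against WT-water were higher (61.1% with TMM), and 45.1% in WT-corticosterone (59.4%). The causes were not tested. In both KO-water subsets miR-126b-5p, miR-122b-3p and miR-196b-5p were called against KO-exercise and KO-corticosterone. They were chosen on counts that include these libraries, so nothing is read from these calls.

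Leaving out 1 library at a time, the share called ran from 18.4% (without WT-exercise 5) to 48.8% (without WT-exercise 2) in WT-exercise against WT-water, where leaving out WT-exercise 3 or 4 also moved it by more than 1.5 times. It ran from 31.3% to 52.4% in WT-corticosterone, from 2.42% (without KO-exercise 4) to 5.58% in KO-exercise, from 0.331% to 0.536% in KO-corticosterone, and from 0% to 29.2% in KO-water against WT-water, where leaving out KO-water 1, 2 or 5 gave 21.4%, 19.5% and 29.2%. MiR-122-5p in WT-corticosterone against WT-water ran from 0.59 to 0.90. In WT-exercise against WT-corticosterone miR-126b-5p ran from -0.22 to 0.59 and miR-122b-3p from -0.26 to 0.49. In KO-exercise against WT-exercise miR-126b-5p ran from -0.42 to 0.35, miR-122b-3p from -0.21 to 0.49 and miR-196b-5p from -0.07 to 0.41. In KO-corticosterone against WT-corticosterone miR-126b-5p ran from -0.49 to 0.90 and miR-122b-3p from -0.54 to 0.90; the lone library is then assumed to vary like the others. The ratio of rates of miR-122b-3p between KO-corticosterone and KO-water ran from 40.62 to 110.4. With 1 to 3 water counts, the ratios of miR-126b-5p and miR-196b-5p are limited by depth. The KO-water subsets for KO-corticosterone, the fits on shared numbers without a block, and the settings for ratios, shares and correlations were chosen after seeing the data.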
